A study of Mus musculus with 4 samples.

Results

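The nuclear genes of oxidative phosphorylation were examined in chromatin accessibility data from MPP3 cells, a multipotent haematopoietic progenitor population biased towards granulocytes and monocytes. Members were the mm10 nuclear protein-coding genes whose symbol starts with Nduf, Uqcr, Cox4, Cox5, Cox6, Cox7, Cox8, Sdh or Atp5, which gave 100 of 21887 protein-coding genes. The rule used symbols only, so it also takes in assembly factors (Ndufaf, Sdhaf) and paralogues that are known from muscle or testis. ATAC-seq, in which a transposase inserts adapters into open chromatin, was run on MPP3 cells sorted by flow cytometry from bone marrow of WT-iMOS mice at 3 months of age. The libraries formed a T2 group of 2 and a T1 group of 2, labelled with the genotypes WTiMOS_T2 and WTiMOS_T1. The labels give the same cell type, tissue, age and strain name for all 4 libraries and do not say what T1, T2 or iMOS stand for. The series asks about the intrinsic role of the transcription factor Bcl11a in MPP3 cells. No label says whether the 2 libraries of a group came from separate animals, so the spread between them may be technical.

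Each library is represented by the authors' list of accessible sites (peaks). The T2 lists held 66764 and 62704 peaks on chromosomes 1 to 19, X and Y, and the T1 lists held 58454 and 54045. Values are given for replicate 1 and then replicate 2. The lists hold no read counts, so depth is unknown and no counting interval can be given. The strongest peak within 1 kb of a gene start is called its start peak, and its strength is given as a percentile of the −log10 q values in the same list, where 100 is the strongest peak. The −log10 q is the authors' own value for a peak within its library. Gene starts were known for 82 members, and for the other 18 the window was placed at both gene ends. With 2 libraries against 2, an exact two-sided test cannot reach a p below 0.333, so no test was made and differences are set beside the spread between replicates. A gene is called higher or lower in T2 here when both T2 libraries lie above or below both T1 libraries.

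The sort label was checked against marker genes. Of 8 MPP3 and myeloid progenitor genes, 7 had a start peak in all 4 libraries, and the exception was Mpo (myeloperoxidase), with percentiles of 51.1 and 45.4 in T2 and no start peak in T1. None of the 4 T and NK cell genes (Cd3e, Cd3g, Cd8a, Klrb1c) had a start peak in any library. None of the 4 B cell genes had one in all 4, and those of Cd79a and Pax5, each found in 3 libraries, did not pass percentile 37.8. Of the other sets, 2 of 4 erythroid genes, 3 of 3 megakaryocyte genes, 1 of 3 endothelial genes and 2 of 3 stromal genes had a start peak in all 4 libraries.

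Oxidative phosphorylation passes electrons from NADH (through complex I) and succinate (through complex II) to complex III and on to oxygen at complex IV, and complex V uses the resulting proton gradient to make ATP. The complexes are built mostly from nuclear-encoded subunits, with a small core encoded in mitochondrial DNA that is not part of the set. Their nuclear promoters are known for sites of NRF1, the ETS factor GABP, YY1 and the oestrogen-related receptor alpha (ESRRA). Quiescent haematopoietic stem cells rely little on respiration, and its use increases as progenitors become active and differentiate.

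The promoter sequences of 7 members that recur in the results are given first, since the accessible sites described below lie over them. They run 5′ to 3′ on the gene's strand, from 250 bases before the RefSeq start to 50 bases from it (GRCm38.p6, the assembly that mm10 names). Capitals mark matches on either strand to the motifs searched, GCGCATGC for NRF1, CCGGAAG for ETS factors, AAGATGGCG for YY1, TCAAGGTCA for ESRRA, GGGCGG for SP factors, TGACGTCA for CREB and ATF factors and TATAAA for the TATA box. Atp5g1, a gene for the c subunit of complex V with the highest-ranking start peak of the set, lies at chr11:96075582-96075881 on the minus strand. Ndufaf8, a complex I assembly factor that ranks next, lies at chr11:120098684-120098983 on the plus strand. Sdhb, the iron-sulphur subunit of complex II with the most accessible regions of any member, lies at chr4:140961021-140961320 on the plus strand. Sdhd, a membrane anchor of complex II that ranked higher in T2, lies at chr9:50603800-50604099 on the minus strand. Atp5e, the epsilon subunit of complex V that also ranked higher in T2, lies at chr2:174464052-174464351 on the minus strand. Ndufa9, a complex I accessory subunit that ranked lower in T2, lies at chr6:126849095-126849394 on the minus strand. Atp5j, the F6 subunit of complex V whose start peak also covers the start of Gabpa, lies at chr16:84834927-84835226 on the minus strand.
Atp5g1: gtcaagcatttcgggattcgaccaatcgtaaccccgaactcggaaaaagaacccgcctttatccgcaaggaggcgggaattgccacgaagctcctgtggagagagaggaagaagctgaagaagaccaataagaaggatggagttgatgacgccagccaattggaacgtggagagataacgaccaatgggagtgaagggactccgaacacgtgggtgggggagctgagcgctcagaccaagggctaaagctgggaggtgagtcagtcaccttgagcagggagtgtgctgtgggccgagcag
Ndufaf8: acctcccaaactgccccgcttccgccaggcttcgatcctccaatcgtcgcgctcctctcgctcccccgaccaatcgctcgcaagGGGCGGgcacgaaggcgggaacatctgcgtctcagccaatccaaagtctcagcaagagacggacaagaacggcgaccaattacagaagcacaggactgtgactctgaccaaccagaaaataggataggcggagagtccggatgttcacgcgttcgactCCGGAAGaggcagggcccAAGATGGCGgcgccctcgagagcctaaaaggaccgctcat
Sdhb: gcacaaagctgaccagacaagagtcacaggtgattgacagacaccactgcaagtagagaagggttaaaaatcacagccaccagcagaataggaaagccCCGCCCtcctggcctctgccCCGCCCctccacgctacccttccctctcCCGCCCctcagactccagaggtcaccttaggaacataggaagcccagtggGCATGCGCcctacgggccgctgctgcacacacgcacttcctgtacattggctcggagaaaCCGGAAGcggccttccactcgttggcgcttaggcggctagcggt
Sdhd: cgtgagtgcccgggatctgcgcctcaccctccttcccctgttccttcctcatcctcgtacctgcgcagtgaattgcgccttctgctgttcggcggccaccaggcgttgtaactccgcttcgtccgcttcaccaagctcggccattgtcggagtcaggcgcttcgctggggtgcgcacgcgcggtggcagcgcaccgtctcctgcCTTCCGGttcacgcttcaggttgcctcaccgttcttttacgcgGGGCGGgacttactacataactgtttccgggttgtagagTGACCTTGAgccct
Atp5e: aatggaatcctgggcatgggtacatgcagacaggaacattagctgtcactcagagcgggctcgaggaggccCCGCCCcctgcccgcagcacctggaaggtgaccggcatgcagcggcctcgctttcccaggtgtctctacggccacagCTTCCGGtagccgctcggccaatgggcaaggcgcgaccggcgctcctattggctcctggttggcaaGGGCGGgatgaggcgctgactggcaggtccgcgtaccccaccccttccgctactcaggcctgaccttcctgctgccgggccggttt
Ndufa9: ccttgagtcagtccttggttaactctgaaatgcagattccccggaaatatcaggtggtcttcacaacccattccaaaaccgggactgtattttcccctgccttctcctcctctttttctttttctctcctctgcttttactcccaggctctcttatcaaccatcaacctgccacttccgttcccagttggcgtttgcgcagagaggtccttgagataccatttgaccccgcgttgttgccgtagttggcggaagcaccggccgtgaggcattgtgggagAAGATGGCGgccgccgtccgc
Atp5j: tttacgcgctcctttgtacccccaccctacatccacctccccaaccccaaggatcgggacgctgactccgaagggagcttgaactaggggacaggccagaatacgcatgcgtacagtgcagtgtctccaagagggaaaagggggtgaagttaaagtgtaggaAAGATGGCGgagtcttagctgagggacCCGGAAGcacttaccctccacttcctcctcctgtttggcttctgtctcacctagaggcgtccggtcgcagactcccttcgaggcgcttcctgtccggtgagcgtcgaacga

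Nearly all members were open at their start in every library. Of the 100 members, 94 had a start peak in all 4 libraries, where the background was 60.6% of all protein-coding genes. All 7 complex I core genes, all 12 assembly factors, all 4 complex II genes, all 8 complex III genes and all 17 complex V genes had one, as did 32 of 34 complex I accessory genes and 14 of 18 complex IV genes. Among other genes that most cells use, 77 of 86 cytosolic ribosomal protein genes and 38 of 40 proteasome subunit genes had a start peak in all 4 libraries, so an open start is shared with those sets. For the 94 members, the start peaks of the 4 libraries fell in 1 common region each.

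The members without a shared start peak were paralogues of restricted expression and gene copies. No start peak was found in any library at Cox7b2, a paralogue of Cox7b, at Cox8c, known from testis, at Cox8b, known from heart and muscle, or at Ndufb4b and Ndufb4c, copies of Ndufb4. Reads from near-identical copies can be assigned to either place or dropped, so the absence at Ndufb4b and Ndufb4c is uncertain. Cox6a2, the heart and muscle form of Cox6a, had a weak start peak in T2 replicate 1 (−log10 q of 6.60) and in T1 replicate 1 (9.80) and none in either replicate 2.

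Beside their broadly used paralogues, the restricted genes were not uniformly closed. The Cox8a start peak stood at percentiles 98.3 and 98.7 in T2 and 95.7 and 96.1 in T1, whereas Cox8b and Cox8c had none. The Cox6a1 start peak stood at 87.1 and 86.1 in T2 and 83.5 and 85.5 in T1, far above the 9.45 and 21.5 of Cox6a2 in the libraries that had it. Cox4i2, the lung form of subunit IV, had start peaks at 65.4 and 65.1 in T2 and 60.0 and 63.1 in T1. Its broad paralogue Cox4i1 stood at 85.9 and 81.1 in T2 and 89.7 and 84.5 in T1. Cox7a1, the heart and muscle form, was at 94.3 and 92.1 in T2 and 90.0 and 88.0 in T1, close to the 96.8 and 96.1 in T2 and 96.2 and 96.8 in T1 of the broad form Cox7a2. The testis-enriched Cox6b2, at 81.9 and 84.2 in T2 and 83.3 and 85.8 in T1, outranked Cox6b1, at 75.4 and 66.4 in T2 and 71.2 and 69.2 in T1. Ndufa4l2, induced by hypoxia in other cells, has no known start here. The peak at its lower coordinate end was weak, at 46.5 and 45.0 in T2 and 39.8 and 42.1 in T1. Its summit lay 794 bp from that end. A region inside the gene, at chr10:127512690-127513155, had a higher −log10 q in every library (51.6 and 35.4 in T2, 76.9 and 48.5 in T1). Ndufa4 stood at 95.1 and 94.8 in T2 and 96.8 and 96.0 in T1. It is counted here with complex I by its symbol although its protein is known as a complex IV subunit. The pair Cox7b and Cox7b2 shows that a broad gene can also be weak, since Cox7b had the lowest-ranking start peak of all 94 members, at 42.1 and 28.0 in T2 and 37.5 and 29.1 in T1.

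The start peaks were strong but of ordinary width. Their median percentile was 89.6 and 88.5 in T2 and 89.0 and 87.2 in T1, and over all genes with a start peak it was 85.8 and 83.9 in T2 and 84.8 and 82.9 in T1. Their median width was 902.5 and 888 bp in T2 and 874.5 and 800 bp in T1, against 947 and 880 bp in T2 and 905 and 828 bp in T1 over all genes. Averaged over the 4 libraries, the median percentile was 88.4 for the 94 members, 84.1 for all genes, 88.6 for ribosomal protein genes and 90.8 for proteasome genes. Strength and width were nearly unrelated among the members (Spearman's rho 0.152 across 94 genes, a description, since genes of 1 library share its depth).

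Complexes differed little in median strength. The median percentile was 91.1 in complex III, 90.5 in complex II, 89.2 in the complex I core, 88.5 in complex V, 88.3 in the assembly factors, 87.3 in the complex I accessory genes and 86.3 in complex IV. Within complex IV the members ranged from 34.2 to 97.2, and within complex II from 88.4 to 93.9. The strongest start peaks of the set belonged to Atp5g1 (mean percentile 99.9), Ndufaf8 and the iron-sulphur subunit Ndufs8 (99.4 each), the flavin-binding subunit Ndufv1 (99.2) and the accessory subunit Ndufa6 (98.9). Among the weakest were those of Cox7b (34.2), Ndufa4l2 (43.3, at a gene end not known to be its start), Cox6c (51.0) and Ndufa1 (58.1). At Cox6c the replicates disagreed most, with 52.1 and 53.8 in T2 and 70.0 and 28.0 in T1, so T2 lies inside the range of T1.

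**Figure D1:**
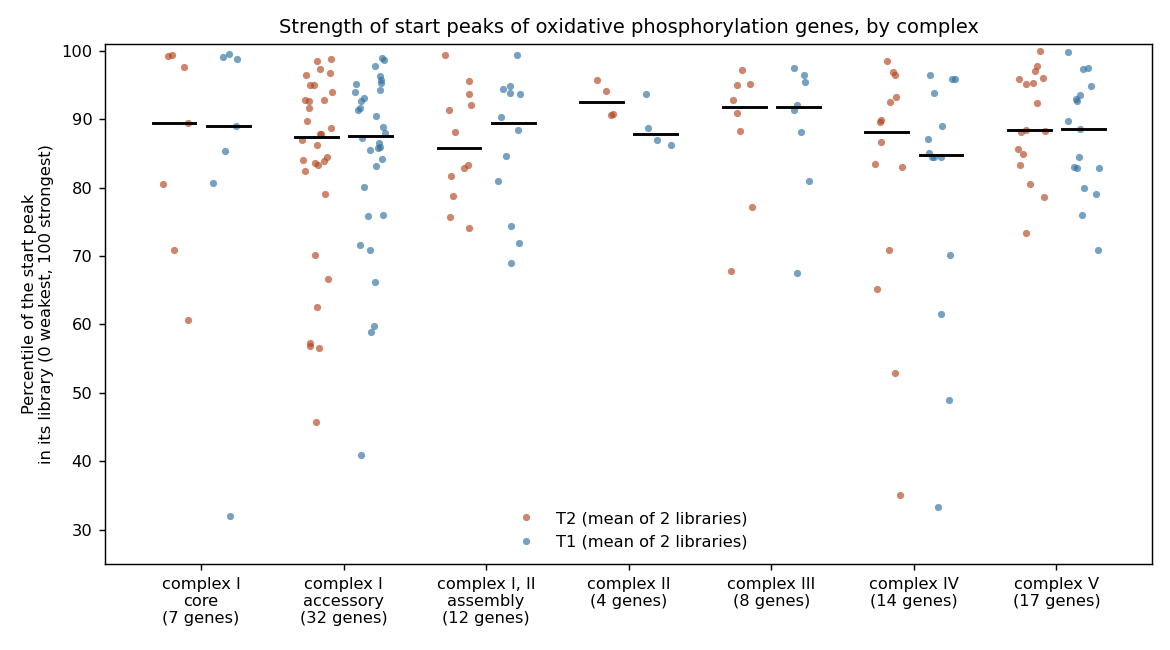
Each point is 1 gene's start peak percentile (vertical axis, 100 is the strongest peak of a library), averaged over the 2 T2 libraries (left of each pair) or the 2 T1 libraries (right), by complex (horizontal axis), with a black bar at the median of the points. Most points lie above 80 in every complex and both groups, and Cox7b in complex IV has the lowest mean over the 4 libraries (34.2).

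Among the catalytic subunits, most had strong start peaks in every library. Ndufv1 stood at percentiles 99.4 and 99.4 in T2 and 98.8 and 99.3 in T1, so both T2 libraries were higher by less than 1 point. In complex II, Sdha, the flavoprotein, stood at 91.9 and 89.6 in T2 and 86.2 and 87.6 in T1, and Sdhb at 96.1 and 92.3 in T2 and 94.0 and 93.2 in T1. Sdha was higher in T2 and the Sdhb groups overlapped. In complex III the Rieske iron-sulphur gene Uqcrfs1 stood at 92.2 and 93.4 in T2 and 92.0 and 90.8 in T1, and the core protein gene Uqcrc1 at 81.5 and 72.9 in T2 and 82.7 and 79.3 in T1. The groups of Uqcrc1 overlapped, and those of Uqcrfs1 were barely apart.

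In complex IV, Cox5a stood at 91.0 and 88.1 in T2 and 88.1 and 81.0 in T1, higher in T2 but with T2 replicate 2 and T1 replicate 1 nearly equal. Cox6b1, at 75.4 and 66.4 in T2 and 71.2 and 69.2 in T1, overlapped. Of the catalytic head of complex V, Atp5b (beta subunit) stood at 98.2 and 97.3 in T2 and 96.8 and 98.1 in T1, and Atp5a1 (alpha subunit) at 86.6 and 84.7 in T2 and 81.7 and 87.2 in T1. Both overlapped between groups. Atp5o, which links the head to the stalk, stood at 89.2 and 87.5 in T2 and 80.8 and 85.1 in T1 and was higher in T2. The accessory subunit Ndufb8 stood at 71.4 and 68.9 in T2 and 65.8 and 77.4 in T1, and T2 lay within the range of T1.

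Widths ran from 396 bp at Cox7b to 1874.5 bp at Uqcrh, the hinge protein gene of complex III (means of the 4 libraries). After Uqcrh the widest start peaks were those of Cox6b2 (1424 bp), the complex II assembly factor Sdhaf1 and Atp5j (1417 bp each) and Ndufa11 (1376 bp). The narrowest after Cox7b were those of Ndufs6 (461 bp), Cox7a1 (519 bp), Cox4i2 (637 bp) and Ndufa7 (647 bp). The Uqcrh peak measured 2035 and 1975 bp in T2 and 1745 and 1743 bp in T1, and it also covered the start of Lrrc41, which lies 199 bp from that of Uqcrh on the opposite strand.

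The summit of the start peak lay close to the annotated start. For the 79 members with a known start and a start peak in all 4 libraries, the median summit was at −32 bp, on the upstream side. It was within 100 bp of the start in 59 members and within 300 bp in 74, upstream in 58 and downstream in 21. In 36 members the 4 libraries placed the summit within 50 bp of each other.

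Many members start close to another gene on the opposite strand. An opposite-strand gene start lay within 1 kb for 25 of the 82 members with a known start (30.5%), where the share was 9.61% of all protein-coding genes with a known start. The same share was 13.6% for ribosomal protein genes and 18.2% for proteasome genes. Starts were 10 bp apart at Ndufa7 and Rps28, 16 bp at Ndufa1 and Rnf113a1, 19 bp at Ndufs3 and Kbtbd4, 35 bp at Sdhaf2 and Cpsf7 and 52 bp at Sdhd and Timm8b, an inner membrane import chaperone. Atp5j and Gabpa, which encodes the DNA-binding subunit of GABP, start 148 bp apart. In 14 members the summit was closer to the start of another gene than to the member's own, so these peaks cannot be assigned to the member alone. They include Ndufa1, Ndufa11, Ndufa4, Ndufb1, Ndufb3, Ndufb5, Sdhaf2, Sdha, Sdhd, Uqcr10, Atp5h, Atp5md and Atp5pb.

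Promoters of members held the NRF1, ETS and YY1 motifs at a higher share than other promoters. Sequences were available for 87 promoters of 82 members, and the shares below are exact matches on either strand in 300 bp. The NRF1 motif, part of a palindrome and so often matched on both strands, was in 12 member promoters (13.8%), against 4.96% of promoters of genes with a start peak in all 4 libraries and 3.52% of all promoters. The ETS motif was in 22 (25.3%), against 16.5% and 11.6%. The YY1 motif was in 8 (9.20%), against 2.77% and 1.83%. The ESRRA motif was in 2, at Atp5g3 and Sdhd (2.30%), against 0.249% and 0.334%. No test was made of these shares.

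The SP motif was in 40 (46.0%) of the member promoters, below the 62.7% of promoters at open starts and near the 46.2% of all promoters. The CRE motif was in 4 (4.60%, against 2.98% and 2.23%) and the TATA box in 10 (11.5%, against 7.06% and 12.6%). The median GC content was 58.7% in member promoters, 61.0% at open starts and 56.3% in all promoters, and the median number of CpG dinucleotides was 20, 20 and 13. The NRF1 motif was found at Atp5g2, Atp5k, Atp5l, Cox6a1, Ndufa11, Ndufa6, Ndufa8, Ndufaf4, Ndufaf5, Sdhb, Uqcr11 and Uqcrc1, across complexes I to V. The YY1 motif was found at Atp5j, Atp5j2, Ndufa9, Ndufaf8, Ndufc1, Ndufs4, Ndufs6 and Ndufs7. In all of these but Atp5j it began downstream of the start, at 10 (Ndufaf8) to 35 (Ndufs4). Its letters contain ATG, and overlap with a start codon was not examined. In the sequences above, the NRF1 match of Sdhb begins at −54 and the YY1 matches begin at 10 in Ndufaf8, 29 in Ndufa9 and −88 in Atp5j, relative to the start. Atp5g1, the strongest member, held none of the 7 motifs in this window. A match of letters is a description and not a site. The letters of the ETS and YY1 motifs can share AAG, so a stretch can count for both.

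**Figure D2:**
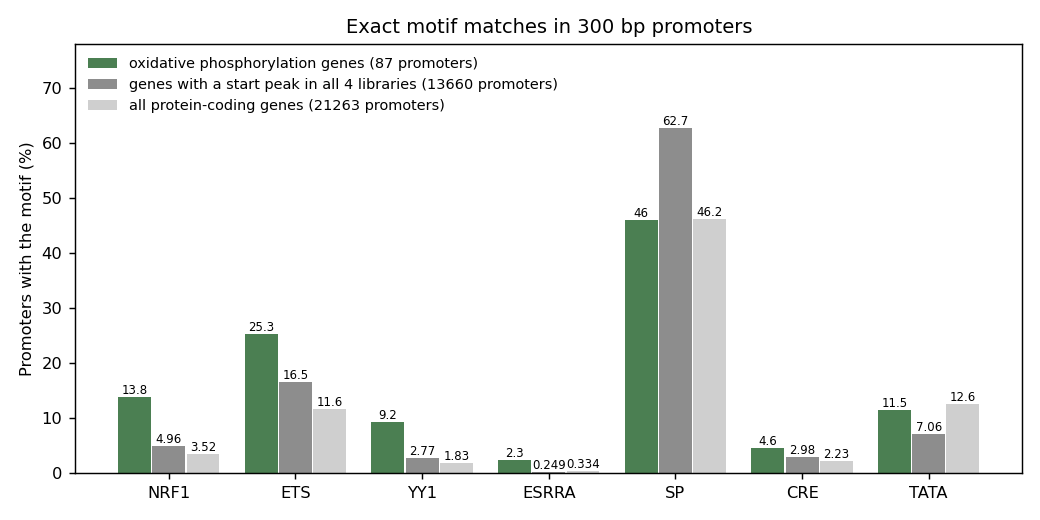
Bars give the percentage of 300 bp promoters with an exact match on either strand (vertical axis) for each motif (horizontal axis), in oxidative phosphorylation genes (green), genes with a start peak in all 4 libraries (dark grey) and all protein-coding genes (light grey). NRF1 (13.8%), ETS (25.3%) and YY1 (9.20%) stand above both grey bars in the green set, and SP (46.0%) stands below the dark grey bar.

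The regions near members were almost wholly shared between T2 and T1. Peaks overlapping across the 4 lists were joined into regions, and 125 regions lay within 1 kb of either end or in the body of a member. Of these 109 (87.2%) had a peak in all 4 libraries, where 60.6% of the 49752 regions near all protein-coding genes did. None was T2-only, that is with a peak in both T2 and in neither T1 library, where the background was 6.16%. A single region was T1-only, where the background was 2.06%. The members' regions are mostly start regions (98 of 125, 78.4%, against 30.8% near all genes), which are shared more often. Among start regions alone, 96 of 98 (98.0%) had a peak in all 4 libraries, against 85.6% for all genes, of which 2.50% were T2-only and 0.412% T1-only. Among regions away from the start, 48.1% of 27 and 49.4% of those of all genes had a peak in all 4 libraries.

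The T1-only region lay in Ndufv2, a complex I core gene with an iron-sulphur cluster, at chr17:66092746-66093215 (470 bp). Its −log10 q was 13.1 and 4.19 in T1, and neither T2 list had a peak there. The T1 replicate 2 peak would not pass a limit of 5, so the call rests on a weak peak. The Ndufv2 start peak itself was strong, at percentiles 98.2 and 97.2 in T2 and 99.1 and 98.6 in T1. The remaining 15 regions had other combinations, 9 with more T2 than T1 libraries, 2 with more T1 and 4 with equal numbers.

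Most members had a single region, the start peak. This was so for 72 members, 23 had 2 or more and 5 had none. The median was 1 region per member and 2 per gene with a start peak in all 4 libraries, and members are shorter (median gene length 7336.5 bp against 23586 bp). Sdhb had the most, 4 regions. Besides its start region, 1 at chr4:140978175-140978637 was present in all 4 libraries, with −log10 q of 38.7 and 26.4 in T2 and 15.6 and 8.08 in T1. Another, at chr4:140964708-140965038, was found in T2 replicate 2 (17.1) and T1 replicate 1 (10.2), and the last, at chr4:140976591-140976823, in T2 replicate 2 (3.54).

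Among the strongest regions outside start windows was one at Ndufb6. It lay at chr4:40269500-40270061, outside the gene's far end, and had −log10 q of 191 and 146 in T2 and 211 and 152 in T1. It was present in all 4 libraries, and the groups overlapped.

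**Figure D3:**
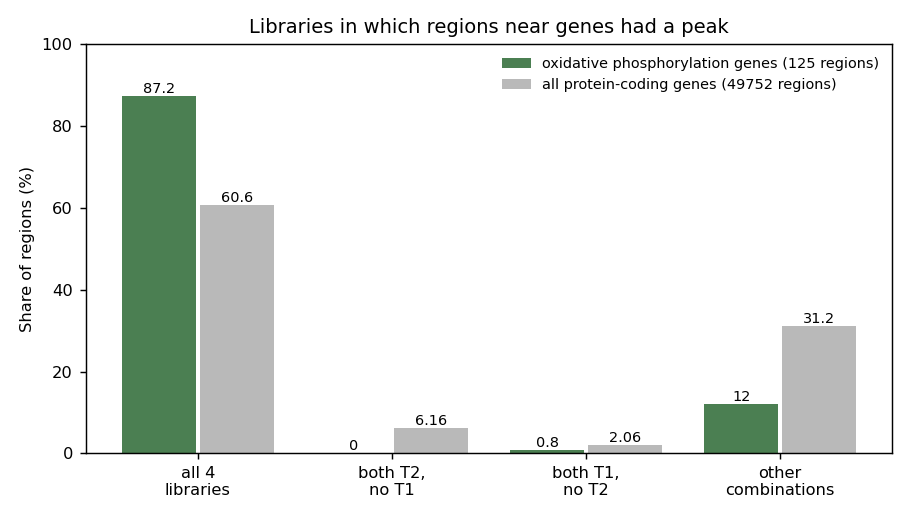
Bars give the share of regions in percent (vertical axis) by the libraries that had a peak in them (horizontal axis), for 125 regions near oxidative phosphorylation genes (green) and 49752 regions near all protein-coding genes (grey). The green bars show 87.2% in all 4 libraries and no region in both T2 libraries alone.

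Ranks of start peaks differed between T2 and T1 about as often as for other genes. With the lists as deposited, 30 of 94 members (31.9%) were higher in T2, where the background was 33.6%, and 15 (16.0%) were lower, where the background was 16.7%. The median difference in percentile, T2 minus T1, was 0.21 points for members and 0.84 for all genes. The median absolute difference between group means was 2.07 points, against 1.92 points between the T2 replicates and 1.88 points between the T1 replicates. Group means of the members ran closely together (Spearman's rho 0.924 across 94 genes). The T2 lists are longer, and a longer list gives the same rank from the top a higher percentile. With every list shortened to its 54045 strongest peaks, 16 members were higher and 35 lower, where the backgrounds were 21.2% and 31.2%. All 16 and 15 of the 35 had the same call as before. Ndufaf1 and Ndufb6 changed sides, from higher to lower.

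**Figure D4:**
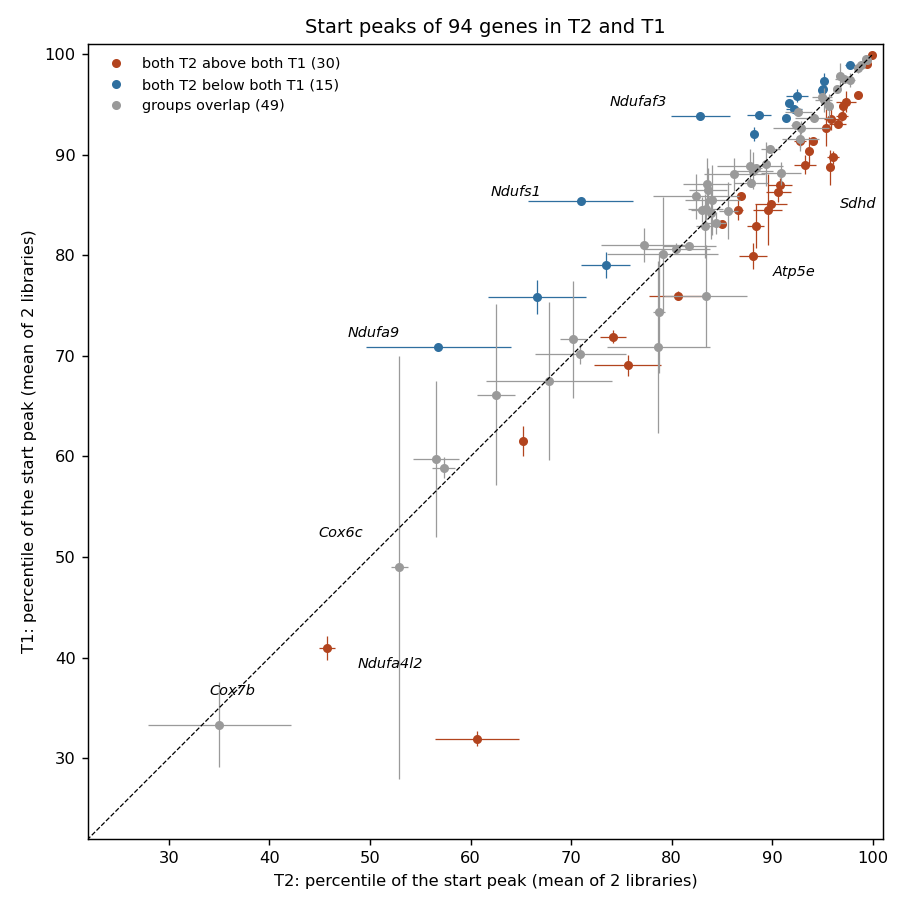
Each point is 1 of 94 genes, with the mean start peak percentile of the 2 T2 libraries on the horizontal axis and of the 2 T1 libraries on the vertical axis. Lines span the 2 replicates of a group, and the dashed line marks equality. Of the points, 30 (orange) have both T2 libraries above both T1, 15 (blue) have both below, and the rest (grey) overlap. Ndufs1 and Ndufa9 lie among the points farthest above the line.

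By complex, members higher in T2 were mainly in complexes II, IV and V. With the lists as deposited, where 33.6% of all genes were higher and 16.7% lower, complex V had 9 higher and 2 lower of 17. Complex IV had 7 and 1 of 14, and complex II 3 and 0 of 4. The complex I accessory genes had 5 higher and 5 lower of 32, the complex I core 2 and 2 of 7, complex III 1 and 2 of 8, and the assembly factors 3 and 3 of 12. At equal list length, 21.2% of all genes were higher and 31.2% lower. The counts were then 5 and 4 in complex V, 4 and 4 in complex IV and 3 and 0 in complex II. They were 2 and 16 in the complex I accessory genes and 1 and 2 in the complex I core. Complex III had 0 and 3, and the assembly factors 1 and 6. The excess of higher genes in complexes IV and V thus depends on list length, and that in complex II rests on 3 genes. Of these, Sdha and Sdhd have summits closer to the start of another gene. Whether complexes differ from each other was not tested. The ribosomal protein genes, as deposited, had 11 higher and 28 lower of 77, and the proteasome genes 8 and 8 of 38.

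Among the members higher in T2, complex V and complex II genes had large differences. Atp5e stood at 86.7 and 89.5 in T2 and 78.7 and 81.2 in T1, a difference of 8.13 points. Sdhd stood at 96.1 and 95.3 in T2 and 90.5 and 87.0 in T1 (95.7 ± 0.59 in T2 and 88.7 ± 2.42 in T1, SD, n = 2 each), a difference of 6.98 points. Atp5md, a small membrane subunit of complex V, stood at 96.6 and 95.5 in T2 and 89.1 and 90.4 in T1, a difference of 6.32 points. In these 3 genes both T2 libraries were clear of both T1 libraries, also at equal list length, but the Atp5e groups overlapped when peaks were ranked by the authors' fold. The Sdhd summit lay 2 bp from the Timm8b start and 54 bp from its own, and the Atp5md summit 24 bp from the start of Pdcd11 and 143 bp from its own. Ndufaf6, an assembly factor, at 79.0 and 72.3 in T2 and 70.1 and 68.0 in T1 (6.60 points), overlapped between groups at equal list length. Its difference was 3.27 points without T2 replicate 1 and 9.93 without T2 replicate 2. Sdhc, the other membrane anchor of complex II, stood at 91.8 and 89.4 in T2 and 85.3 and 87.2 in T1 and was higher in both settings.

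Members lower in T2 were led by complex I genes. Ndufs1, an iron-sulphur subunit of the complex I core, stood at 76.2 and 65.7 in T2 and 85.1 and 85.7 in T1 (71.0 ± 7.37 in T2 and 85.4 ± 0.387 in T1, SD, n = 2 each), a difference of −14.5 points. Its summit lay 62 bp from the gene end and 71 bp from the start of Eef1b2, a translation elongation factor gene, so the site may serve either. Ndufa9 stood at 64.0 and 49.6 in T2 and 71.1 and 70.7 in T1, a difference of −14.1 points. For both genes the T1 replicates were nearly equal and the T2 replicates lay over 10 points apart, and without T2 replicate 2 the difference was −9.25 points at Ndufs1 and −6.87 at Ndufa9. Without T2 replicate 1 it was −21.3 points at Ndufa9.

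Ndufaf3, an assembly factor, stood at 85.8 and 79.9 in T2 and 94.2 and 93.4 in T1, a difference of −11.0 points. Ndufc2, an accessory subunit of the membrane arm, stood at 71.5 and 61.7 in T2 and 77.5 and 74.2 in T1, a difference of −9.24 points. Atp5l, the g subunit of complex V, stood at 75.9 and 71.0 in T2 and 77.8 and 80.3 in T1, a difference of −5.63 points. All 5 kept both T2 libraries below both T1 libraries at equal list length, where the difference was −19.4 points at Ndufs1, −21.2 at Ndufa9, −14.7 at Ndufc2 and −9.88 at Atp5l. The difference at Ndufc2 was −4.33 points without T2 replicate 2 and −14.1 without T2 replicate 1, and at Atp5l it was −3.18 without T2 replicate 2.

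Widths were more often larger in T2, as they were for all genes. Of 94 members, 25 (26.6%) had a wider start peak in both T2 than in both T1 libraries, where the background was 32.4%, and 5 (5.32%) a narrower one, where the background was 7.83%. The median log2 ratio of widths, T2 over T1, was 0.067 for members and 0.065 for all genes. The median absolute log2 difference was 0.087 between group means, 0.069 between T2 replicates and 0.130 between T1 replicates. Widths were also divided by their library median, here the median start peak width over all genes with a start peak in all 4 libraries. In this setting, added after the data were seen, 12 members were wider and 18 narrower, where the backgrounds were 16.6% and 18.4%.

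The widest differences were at Atp5j2, the f subunit of complex V, at 922 and 901 bp in T2 and 749 and 623 bp in T1 (log2 ratio 0.41), and at Ndufb10, a membrane-arm subunit, at 787 and 810 bp in T2 and 617 and 589 bp in T1 (0.41). Atp5mpl, a small complex V protein, measured 904 and 902 bp in T2 and 647 and 728 bp in T1 (0.39). Uqcr11, a small complex III subunit, measured 1016 and 1073 bp in T2 and 929 and 720 bp in T1 (0.34). Ndufa12, an accessory subunit, measured 841 and 848 bp in T2 and 712 and 642 bp in T1 (0.32). In these 5 genes the T2 replicates lay close to each other, and both exceeded both T1 replicates. In rank, Atp5j2 was higher in T2 as deposited (83.4 and 77.8 in T2, 75.5 and 76.5 in T1) and overlapped at equal list length. The other 4 overlapped as deposited. At equal list length Ndufb10 (56.1 and 54.3 in T2, 73.1 and 57.2 in T1) was lower in T2. So was Ndufa12 (95.0 and 92.9 in T2, 95.7 and 95.4 in T1), while Atp5mpl and Uqcr11 overlapped. The Uqcr11 ratio was 0.17 without T1 replicate 2 and 0.54 without T1 replicate 1.

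Narrower start peaks in T2 differed by less. Ndufb11, a membrane-arm subunit, measured 1005 and 1146 bp in T2 and 1195 and 1193 bp in T1 (log2 ratio −0.15), and Ndufb1 measured 994 and 1018 bp in T2 and 1181 and 1036 bp in T1 (−0.14). Cox7a1 measured 484 and 513 bp in T2 and 541 and 538 bp in T1 (−0.11). Sdhd, which ranked higher in T2, measured 965 and 930 bp in T2 and 996 and 1015 bp in T1 (−0.09). Sdhaf4, an assembly factor of complex II, measured 685 and 690 bp in T2 and 698 and 694 bp in T1 (−0.02), with the nearest replicates of the groups almost equal, and its groups overlapped once widths were divided by the library median. The Ndufb11 ratio was −0.06 without T2 replicate 1 and −0.25 without T2 replicate 2, the Ndufb1 ratio −0.04 without T1 replicate 1 and −0.23 without T1 replicate 2, and the Cox7a1 ratio −0.07 without T2 replicate 1. Among these narrower start peaks, rank and width went opposite ways at Sdhd and at Cox7a1, both higher in rank in T2.

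**Figure D5:**
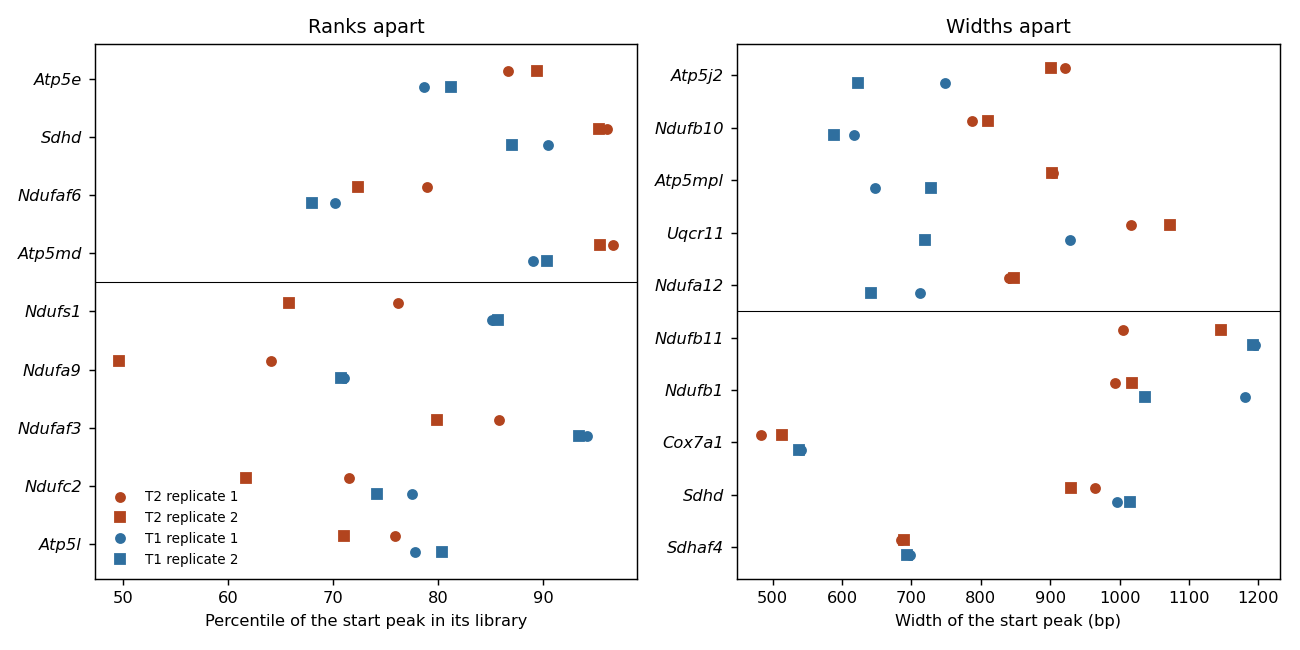
Left, start peak percentile in each library (horizontal axis) for genes with the largest differences in each direction, 4 higher in T2 and 5 lower. Right, start peak width in bp (horizontal axis) for the 5 genes with the largest log2 ratio in each direction, with genes down the vertical axis. T2 is orange and above T1 (blue) in each row, circles are replicate 1 and squares replicate 2, and a line parts genes higher or wider in T2 (above) from those lower or narrower (below). Among the widths, Sdhaf4 has the smallest gap.

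Other genes of the pathway also had open starts. The lists of cytochrome c and c1 (2 genes), complex III assembly (6), complex IV assembly (12), complex V assembly and inhibition (4) and further complex I assembly (5) had a start peak in all 4 libraries at every gene. Cyc1, cytochrome c1, was higher in T2 (85.3 and 85.2 in T2, 84.5 and 77.1 in T1) and Cycs, cytochrome c, was lower (97.4 and 97.0 in T2, 98.6 and 98.5 in T1). Only the Cycs call was also made at equal list length. Of the 12 complex IV assembly genes, 6 were higher and 2 lower (5 and 3 at equal list length). Over all genes the shares were 33.6% and 16.7% as deposited and 21.2% and 31.2% at equal list length. The list is too short to read against them. The copper chaperones Sco1 (81.7 and 84.3 in T2, 74.1 and 75.1 in T1) and Sco2 (90.1 and 90.3 in T2, 81.9 and 84.2 in T1) were among the higher, and Cox15, a haem A synthesis gene, was lower (93.6 and 95.1 in T2, 97.0 and 97.3 in T1).

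Of the complex III assembly genes, 3 were higher and 0 lower (2 and 0 at equal list length). This list and those that follow are also too short to read against the shares over all genes. Atpif1, the inhibitor of complex V, was lower in T2, at 46.9 and 46.4 in T2 and 62.7 and 58.1 in T1, and was the single gene of its list of 4 with separated ranks. Among 10 regulators of mitochondrial genes, 9 had a start peak in all 4 libraries, 3 were higher and 2 lower (3 and 3 at equal list length). Tfam, the packaging factor of mitochondrial DNA, was higher (95.3 and 96.3 in T2, 94.2 and 92.3 in T1), while Nrf1 (86.9 and 82.9 in T2, 90.1 and 89.9 in T1) and Yy1 (92.9 and 91.9 in T2, 93.6 and 94.2 in T1) were lower. Gabpa was higher through the peak it shares with Atp5j (97.0 and 97.0 in T2, 94.3 and 95.5 in T1). Ppargc1a, the coactivator PGC-1 alpha, had no start peak in any library but 22 regions, 2 of them T2-only. Of 6 regions each, Ppargc1b had 2 T2-only and Nrf1 had 1, where the background over all regions near genes was 6.16%, so these counts are too small to read against it.

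Some marker genes, also of other cell types, differed in rank between the groups. Over all genes, 33.6% were higher and 16.7% lower as deposited, and 21.2% and 31.2% at equal list length. The marker lists are too short to read against these shares. All 3 megakaryocyte genes were higher in T2, between 77.4 and 90.5 in T2 and between 54.7 and 82.5 in T1, also at equal list length. Pecam1, an endothelial and progenitor gene, stood at 85.6 and 80.6 in T2 and 58.5 and 49.8 in T1, while Cdh5, a defining endothelial marker, had no start peak. Of the MPP3 and myeloid list, Cd34 (83.0 and 84.0 in T2, 69.6 and 67.6 in T1), Flt3, Fcgr3 and Spi1 were higher in T2, in both settings. Kit and Cd48 overlapped in both, and Cebpa overlapped as deposited and was lower at equal list length (91.8 and 90.5 in T2, 93.0 and 93.0 in T1). In bulk samples, more cells of a type and a more open site in each cell cannot be told apart. The part of these differences in the values of the oxidative phosphorylation genes was not tested.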

How the data were processed

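ATAC-seq peaks of 4 libraries (T2 and T1, 2 each) were analysed. Per the submitters' processing notes, the authors used Bowtie2, SAMtools, MACS2 and the build mm10. No version or setting is given in the sources used here, and the treatment of the transposase shift and of duplicates is likewise not given. A single name prefix runs through each list, so peaks were called per library. In the deposited lists the authors give for each peak a score (a whole number), a fold ratio over local background, a −log10 p-value and a −log10 q-value and the summit offset. These describe a peak within its own list. No read counts are given and depth is unknown, so no count model and no interval was used.

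Only peaks of the autosomes, X and Y entered (66764 and 62704 in T2, 58454 and 54045 in T1). Peaks overlapping by at least 1 bp were joined into regions. Percentiles rank the −log10 q within a list. Gene positions and promoters came from RefSeq tables (assembly GRCm38.p6, equivalent to mm10). The promoter table gave the start of 82 members and both gene ends were used for 18. Width and percentile are those of the strongest peak overlapping 1 kb either side of a start. Python 3.11.15, pandas 2.3.3, numpy 2.4.6, scipy 1.17.1 and matplotlib 3.10.9 were used, and the procedure was tested on simulated lists.

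Genes were named by a rule. It took a fixed subunit set, members without a start peak in every library, members with group-only regions, the 5 highest, lowest, widest and narrowest members, the 5 largest separated differences per direction, and restricted paralogues. A few of the genes it takes are left unreported. Other genes were named after their values were seen. The members and gene lists were chosen with earlier results of these data known. Alternatives were stricter q limits, equal list length, a 500 bp window, structural subunits, ranking by fold and covered base pairs. Others were summit regions of 250 bp either side and leaving out each library. Further ones were width over the library median of start peaks, and members with a known start. The last 2 were added after the data were seen.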

Additional observations from a re-analysis of the deposited data

How the results depend on the processing

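Of 86 summary values under 14 alternatives, 59 stayed within 1.5 times the count or within 1.03 points of the median percentile, and 27 moved. The 94 members with a start peak in all 4 libraries stayed at 94 in every alternative that kept the full set. Keeping peaks with −log10 q from 5 upwards left 1 T2-only and 0 T1-only regions, a limit of 10 left 2 and 0, and T2-only regions numbered 1 with summit regions. At equal list length 16 members were higher in T2 and 35 lower, and 15 were higher when ranked by fold. The median percentile was 85.0 at the limit of 10 and 87.1 at equal list length. With structural subunits alone 3 were narrower, and with width over the library median 12 were wider and 18 narrower. Without T2 replicate 1, 38 members were wider, 23 narrower and 40 lower, with 2 T2-only regions. Without T2 replicate 2, 52 were wider, again with 2 T2-only regions. Without T1 replicate 1, 59 were wider, 11 narrower and 28 lower, with 4 T2-only regions. Without T1 replicate 2, 23 were narrower and 34 lower, with 1 T2-only and 3 T1-only regions. Leaving out each library in turn gave 1 to 4 T2-only and 1 to 3 T1-only regions, 35 to 59 wider, 7 to 23 narrower, 32 to 45 higher and 19 to 40 lower members. Such calls can only grow in number when a library is left out, by construction. Of 200 values of the 20 largest separated differences, 197 kept their call, 0 reversed and 3 were lost. These were Atp5e ranked by fold, Ndufaf6 at equal list length and the width of Sdhaf4 over the library median. The cause was not tested. No paired analysis was possible because no result comes from a test and the labels tie the replicate numbers to no shared animal or day. Between libraries of the same number, T2 against T1, the median absolute difference over members was 2.50 points for replicate 1 and 2.58 for replicate 2. Depth is unknown, so the absence of a peak does not show closed chromatin.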
